A study of Mus musculus with 44 samples.

Results

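Lungs of Timp2-mutant and wild-type mice that had all received Lewis lung carcinoma cells by way of the trachea and recombinant TIMP2 were compared across all genes. The comparison takes every column of the intratracheal table that carries the name MT2 + T2 (mutant, treated, 5 libraries) and every column that carries the name WT + T2 (wild-type, treated, 5 libraries), which is 10 of the 30 libraries of that model and of the 44 samples of the series. Of the 26940 genes in the table, 16858 reached a normalized count of 10 in at least 5 of these libraries and were tested. The mice were C57BL6j. The cells were LL/2-Luc2, a mouse lung carcinoma line that carries a luciferase reporter (Luc2). Every mouse of both groups was given human recombinant TIMP2 (rTIMP2) into the peritoneum each day at 200 µg per kg, so neither group is untreated. The labels name the genotypes only as mutant Timp2 and WT, and the series title calls the mutation one of loss of function. Age, sex and the exact allele are not part of the labels used here. Tissue pieces of about 3 mm3 were lysed whole, so each library mixes RNA of the host lung with RNA of the injected cells. Fewer cells of a type and less RNA per cell cannot be told apart in such material. Replicates are numbered by their titles, and p-values measure the spread between these lungs.

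TIMP2 is a small secreted protein that binds and blocks matrix metalloproteinases, the enzymes that cut collagen and other matrix proteins. It also takes part in the activation of pro-MMP2 at the cell surface, in a complex with the membrane-bound protease MMP14, and it can act on cells through integrin receptors. In lung the matrix supports a thin alveolar wall made of type 1 and type 2 epithelial cells and capillary endothelium. The design text of the series gives as its aim the effect of the mutation on lung tumours and of daily treatment with the protein; the comparison here asks how mutant and wild-type lungs differ when both receive it.

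With all 10 libraries, no gene differed between the genotypes at an adjusted p under 0.05 (limma on log2 values, 0 of 16858 genes, 0%). The gene nearest to the threshold was Smim6, a gene for a small integral membrane protein on the same chromosome as Timp2. Its level averaged 204 ± 67.0 in WT + T2 lungs and 24.6 ± 11.5 in MT2 + T2 lungs (normalized counts, mean ± SD, n = 5 each), with an adjusted p of 0.18. Markers of alveolar, airway and endothelial cells averaged lower in the mutant group, and genes of the injected cells and of cell division averaged higher, but these followed a split among the lungs that ran through both genotypes. Leaving out 1 mutant library, number 2, brought 5664 genes past the threshold. Leaving out any other single library brought none.

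Smim6 kept nearly the same difference when the reporter level was held equal, and it is the gene nearest to the threshold, so the sequence in front of it is shown here. The 250 bases before its annotated start lie at chr11:115911767-115912016 on the plus strand (RefSeq, GRCm38.p6), with CG dinucleotides in capitals.

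Smim6 promoter: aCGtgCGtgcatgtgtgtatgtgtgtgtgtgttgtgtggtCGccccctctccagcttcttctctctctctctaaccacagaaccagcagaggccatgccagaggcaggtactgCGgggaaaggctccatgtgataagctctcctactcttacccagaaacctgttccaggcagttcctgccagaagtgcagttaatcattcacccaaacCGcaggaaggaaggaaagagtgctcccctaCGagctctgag

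The stretch holds 6 CG dinucleotides and is 54% G or C. Among 32851 mouse promoters of the same length in that table the median is also 6, and 53.7% hold as many CG or fewer. It contains neither TATAAA nor GGGCGG on either strand; 12.4% of the promoters hold the first and 32.7% the second. These are counts of letters and say nothing of which factor binds.

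Timp2 itself did not separate the groups. In WT + T2 lungs 1 to 5 its normalized counts were 10119, 9998, 8046, 5809 and 9685. In MT2 + T2 lungs 1 to 5 they were 7695, 5487, 6338, 9597 and 5979. Mutant lung 4 thus stood among the wild-type values and wild-type lung 4 among the mutant ones. The log2 difference, mutant minus wild-type, was -0.32 ± 0.23 (SE; limma, adjusted p = 0.36). The values cover the whole gene at chr11:118301069-118355740 on the minus strand, and since the part of the transcript that the mutation changes is not given in the labels, the level alone does not check the genotype. In tumour-free lungs of the same table, which hold no injected cells, Timp2 was lower in all 5 mutants than in all 5 wild-types. It stood between 5948 and 6237 there against 10147 to 11489, a log2 difference of -0.80 (adjusted p = 1.7e-07). In tumour lungs given the buffer HBSS the sign was the other way, with a log2 difference of 0.32 (limma, unadjusted p = 0.146).

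The lungs of both groups divided by how much of the injected cells' RNA they held. The luciferase reporter Luc2 was at 23.3, 0, 0, 67.7 and 0 in WT + T2 lungs 1 to 5 and at 75.5, 0.983, 50.9, 37.9 and 55.3 in MT2 + T2 lungs 1 to 5. Hmga2, a chromatin protein of embryonic and tumour cells, was at 1198, 23.5, 32.1, 2780 and 13.6 in the wild-type lungs and at 5300, 63.9, 3309, 4378 and 3112 in the mutant lungs. Wild-type lungs 2, 3 and 5 and mutant lung 2 thus held little of either transcript, wild-type lung 1 stood between, and the other 5 held much. Hmga2 averaged 809 ± 1213 in WT + T2 and 3232 ± 1978 in MT2 + T2 (mean ± SD, n = 5 each; exact two-sided permutation p = 0.0397, adjusted over the pair of transcripts 0.0794). Without wild-type lung 4, or without mutant lung 2, the adjusted exact permutation p was 0.0317. With any other lung left out, or on the log2 scale, that adjusted p did not pass, and it reached up to 0.175. Luc2 averaged 18.2 ± 29.5 and 44.1 ± 27.6 (exact permutation p = 0.183, adjusted 0.183). With 252 arrangements the smallest p possible is 0.00794. A value of 0 for Luc2 allows up to 3 reads in these libraries of 12.3 to 15.4 M estimated reads.

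**Figure D1:**
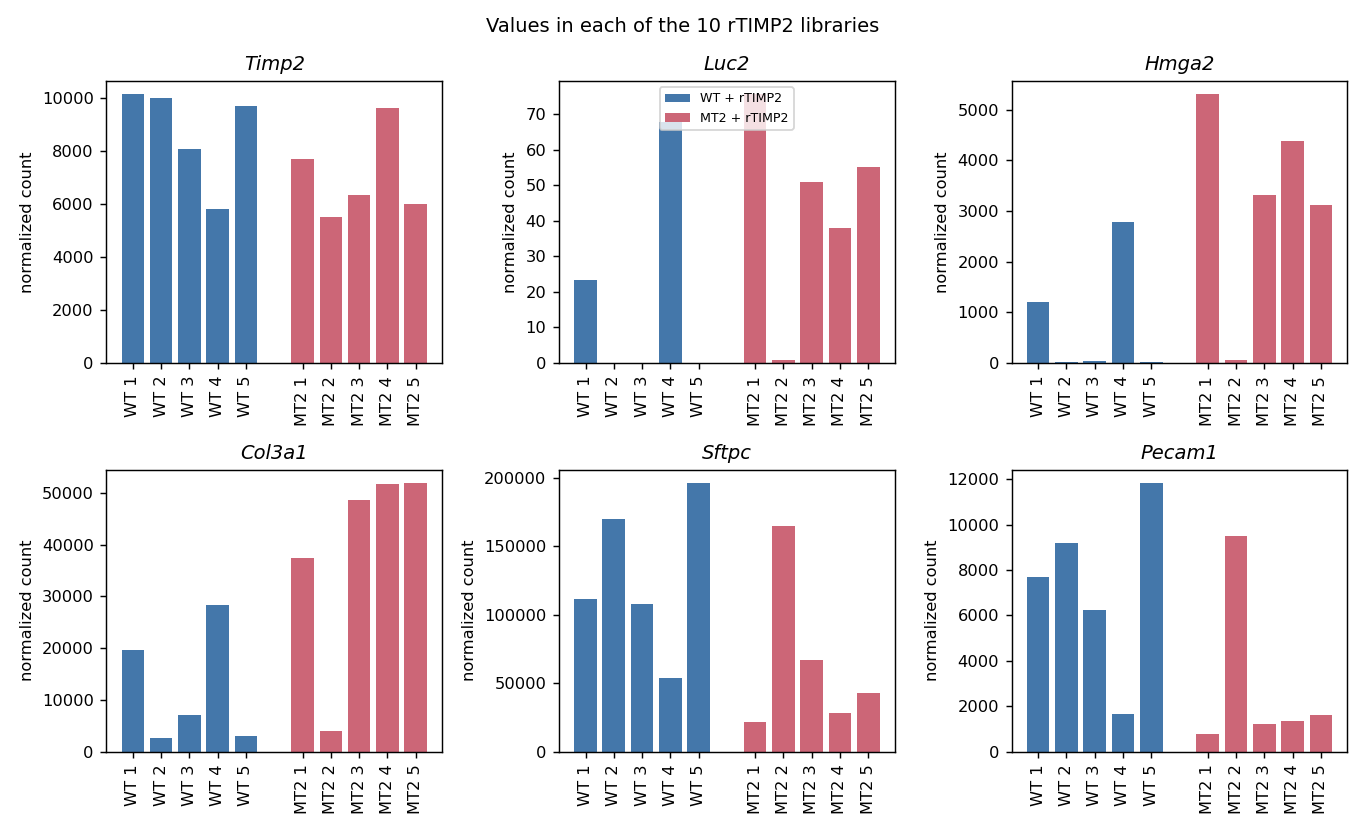
Normalized counts of Timp2, Luc2, Hmga2, Col3a1, Sftpc and Pecam1 in each of the 5 WT + T2 and 5 MT2 + T2 lungs, 1 bar per library on linear axes that start at 0. Mutant lung 2 holds 63.9 counts of Hmga2 and 164672 of Sftpc, like wild-type lungs 2, 3 and 5 and unlike the other 4 mutant lungs.

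Whole profiles divided the same way. Spearman's rho over the 16858 tested genes was 0.988 between wild-type lung 5 and mutant lung 2, which have different genotypes, and 0.982 between wild-type lung 2 and mutant lung 2. It was 0.985 between wild-type lung 4 and mutant lung 3. Between mutant lungs 1 and 2, of the same genotype, it was 0.767. These correlations run across genes, which share depth and normalization.

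All lungs carried the transcripts that define the organ. Sftpc of alveolar type 2 cells ranged from 54067 to 195997 in WT + T2 and from 21896 to 164672 in MT2 + T2 lungs. Ager of type 1 cells, Scgb1a1 of club cells, Foxj1 of ciliated cells, Cdh5 and Pecam1 of endothelium and Pdgfra of fibroblasts were all above 100 in every library. Marco of alveolar macrophages was low, between 10.4 and 139. WT + T2 lungs 2 and 3 stood apart in another way: they held RNA of skeletal muscle and of squamous epithelium. Acta1, the actin of skeletal muscle, was at 13217 and 77473 in these lungs and between 3.77 and 238 in the other 8. Krt13, a keratin of squamous epithelium, was at 37274 and 114425 there and between 2.91 and 104 elsewhere. The summed level of the 6 tested skeletal muscle genes was 29118 and 177110 in these lungs, from 204 to 568 in the other wild-type lungs, and from 35.8 to 408 in the mutant lungs. Such RNA was not confined to treated lungs. In HBSS tumour lungs the muscle sum reached 33561 in wild-types and 25081 in mutants (medians 473 and 211). The squamous sum reached 46508 in wild-type and 1293 in mutant HBSS lungs. The part of this RNA in the HBSS comparisons was not tested. Xist, which coats the silent X chromosome, lay between 42.2 and 2033 in WT + T2 and between 119 and 4843 in MT2 + T2, and stood under 120 in the same 4 lungs that held 1 read or less of the reporter. Ddx3y, a Y-linked gene, was between 234 and 1321 in all 10. The part of muscle RNA, host sex and injected-cell RNA in the gene differences was not tested beyond the fits below that leave libraries out or hold Luc2 equal.

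Across all genes, 2998 of 16858 had an unadjusted limma p under 0.05 (17.8%), 758 of them with the mutant group higher (4.5%) and 2240 with it lower (13.3%). The smallest adjusted p, that of Smim6, was 0.18, and most genes named here shared an adjusted p of 0.26, which the adjustment gives to many genes at once. The median log2 difference was -0.01 and 49.5% of the genes had a positive one. Large differences were common: 1101 genes were higher in the mutant group by more than 1 log2 unit and 3030 were lower by more than 1. The spread between lungs of a group was large too. The median SD of log2 values over genes was 0.50 in WT + T2 and 0.55 in MT2 + T2, against 0.38 and 0.49 in tumour lungs given the buffer HBSS and 0.15 and 0.14 in tumour-free lungs (wild-type, then mutant).

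Which lungs were included decided the count. Without mutant lung 2, 5664 of 16451 genes were called (34.4%), of which 2375 were higher in the mutant lungs (14.4%) and 3289 lower (20%). Each of the other 9 fits with a single lung left out called 0 genes. The fit without mutant lung 2 was singled out because its calls changed. Mutant lung 2 was the only mutant lung with little reporter. That fit thus sets reporter-rich mutant lungs against wild-type lungs of both kinds, and list counts from it give no separate support. Without wild-type lungs 2 and 3, those with muscle and squamous RNA, no gene was called and 99 of 16119 had an unadjusted p under 0.05 (0.614%), 51 higher and 48 lower. That fit, chosen after the values were seen, keeps 1 of the 3 wild-type lungs with little reporter.

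**Figure D2:**
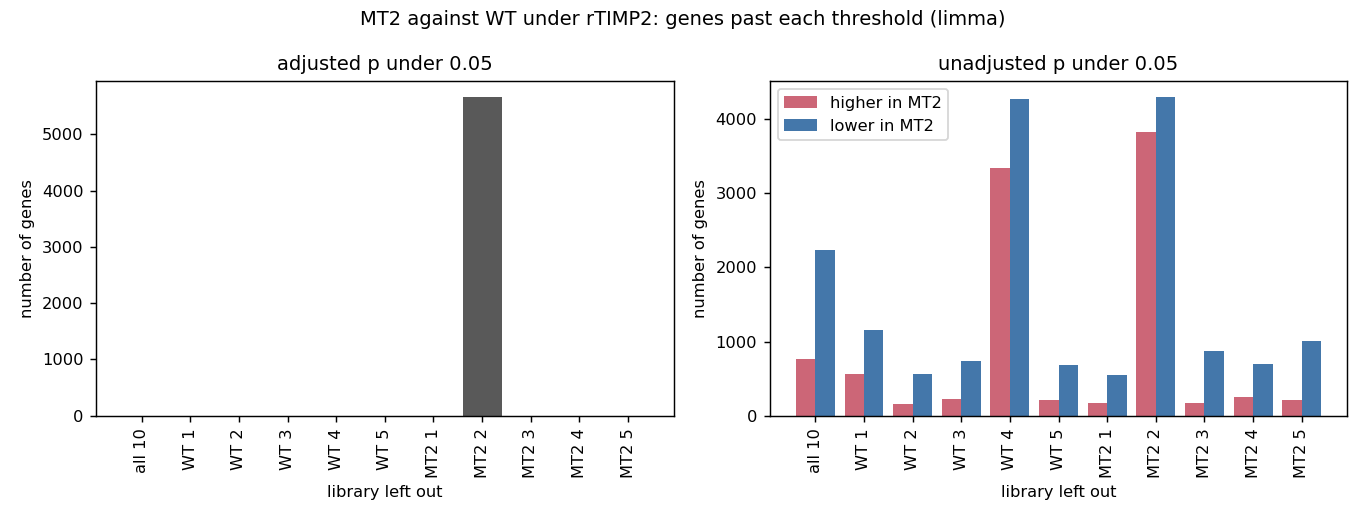
Number of genes past the threshold in the mutant against wild-type comparison with all 10 lungs and with each lung left out in turn, for the adjusted p and the unadjusted p under 0.05. The fit without MT2 + T2 lung 2 gives 5664 genes at the adjusted threshold, and the fit with all lungs and the other 9 give 0.

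When Luc2 was held equal by adding its log2 level to the fit as a covariate, 0 of 16858 genes were called (0%) and 240 had an unadjusted p under 0.05 (1.42%), 70 higher and 170 lower. The genotype difference became smaller in size for 14720 genes, 87.3% of those tested. Its median size over genes was 0.48 on the log2 scale before and 0.16 after. The smallest adjusted p in that fit was 0.42 and again belonged to Smim6, so no value given here for equal Luc2 passed the test. Luc2 itself differs between the groups by 2.67 log2 units, and a covariate that differs between groups also takes up difference that goes with genotype.

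Groups that do not overlap give a view that does not rest on a mean. In 26 genes every mutant lung was above every wild-type lung (0.154% of those tested), and in 14 every mutant lung was below (0.083%). Of the 252 arrangements of the lungs into 5 and 5, 1 gives each of these results, a larger share than either. Non-overlap by itself thus does not set a gene apart from an arbitrary split of the lungs. Smim6 (ENSMUSG00000075420, chr11:115912017-115913920) had the largest difference among the 14 genes with every mutant lung below. Its counts were 172, 153, 193, 182 and 322 in WT + T2 lungs 1 to 5. They were 8.83, 37.4, 17.0, 30.1 and 29.7 in MT2 + T2 lungs 1 to 5. The lowest wild-type lung was thus above 4 times the highest mutant lung, and both the reporter-poor and the reporter-rich lungs of each genotype lay on their own side. The log2 difference was -3.11 ± 0.40 (SE; limma, adjusted p = 0.18). It was -2.82 at equal Luc2 (adjusted p = 0.42) and -3.29 without mutant lung 2 (adjusted p = 0.0206). Without wild-type lungs 2 and 3 it was -3.24, with an adjusted p of 0.74.

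The difference in Smim6 was also present in other mice of the same genotypes. In tumour-free lungs it fell by 2.58 on the log2 scale in the mutants (adjusted p = 2.2e-06). In tumour lungs given HBSS its counts were 149, 105, 87.3, 29.3 and 17.1 in wild-type lungs 1 to 5 and 3.06, 0, 3.87, 7.61 and 153.6 in mutant lungs 1 to 5. Mutant HBSS lung 5 therefore lay above every wild-type HBSS lung, and the difference of -2.97 had an unadjusted p of 0.0216 and an adjusted p of 0.55. The difference between the rTIMP2 and the HBSS contrasts was -0.14 (limma interaction, adjusted p = 0.967). Smim6 lies 2387.1 kb from Timp2. Smim5, its neighbour at chr11:115899966-115906269, was at 76.1, 129, 167, 35.1 and 150.3 in WT + T2 lungs and at 7.85, 85.5, 25.4, 15.5 and 23.5 in MT2 + T2 lungs. The groups overlapped in Smim5, with a difference of -2.03 (adjusted p = 0.26), of -1.06 at equal Luc2 and of -0.69 in tumour-free lungs (adjusted p = 0.17).

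**Figure D3:**
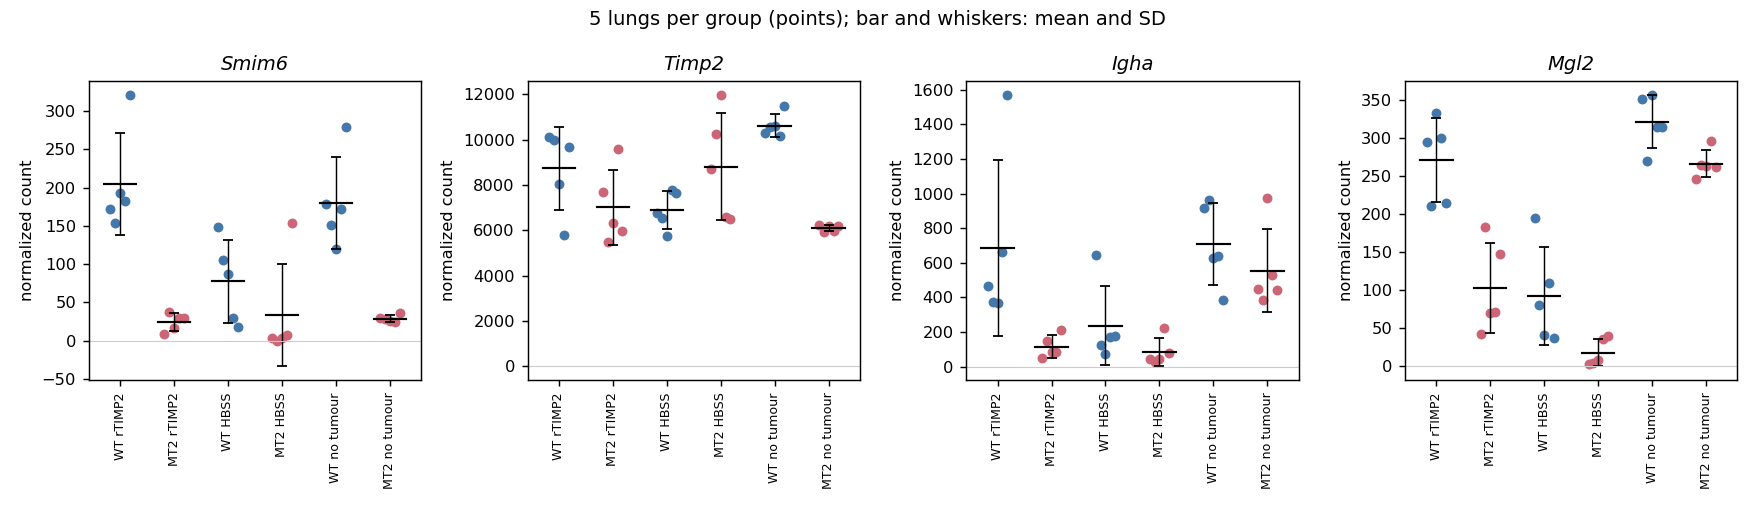
Normalized counts of Smim6, Timp2, Igha and Mgl2 in the 6 groups of the intratracheal table (tumour-free, HBSS and rTIMP2, each wild-type and mutant), 1 point per lung, with the mean and SD of each group of 5. Smim6 is lower in all 5 mutant lungs than in all 5 wild-type lungs with rTIMP2, and in the HBSS mutants 1 lung stands at 153.6.

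Over the neighbourhood of Timp2 as a whole the share of genes with a low p was that of the table. Of 185 tested genes within 5 Mb of it, 33 had an unadjusted p under 0.05, which is 17.8% and the same share as over all genes. Smim6 was the only 1 of the 185 whose groups did not overlap, where 40 of 16858 did not over all genes. A count of 1 is too small to set the region apart. The median difference was 0.03. In tumour-free lungs 29 of 189 tested genes of that region had an unadjusted p under 0.05, 15.3% against 9.74% over all genes, and in HBSS lungs 8 of 181, 4.42% against 7.41%. The largest difference in the region was that of BC018473, an antisense RNA at chr11:116752167-116759373, 1541.7 kb from Timp2. Its counts were 2.03, 716, 4.59, 3.26 and 0 in WT + T2 lungs and 136, 1255, 207, 76.7 and 325 in MT2 + T2 lungs. Wild-type lung 2 lay among the mutant lungs, and the other 4 wild-type lungs were under 5. The log2 difference was 4.81 ± 1.56 (SE; adjusted p = 0.26) and 6.00 at equal Luc2 (adjusted p = 1). It was 2.73 in HBSS lungs (adjusted p = 0.68) and 2.02 in tumour-free lungs (adjusted p = 0.58), where wild-type lung 5 stood at 3.05 and the other 4 wild-type lungs between 163 and 243. BC018473 was picked after its values were seen, and reads from an antisense RNA and its partner cannot be told apart without strand. Of the 49 tested genes in the list of nearest neighbours, 25 were higher and 24 lower, with a median of 0.01. An unadjusted p under 0.05 was reached by 4 of them, or 8.16% against 17.8% over all genes.

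Mgl2, a lectin receptor of macrophages and dendritic cells (chr11:70130329-70137550), was at 295, 211, 334, 301 and 215 in WT + T2 lungs and at 43.2, 183, 70.3, 72.0 and 148 in MT2 + T2 lungs. The groups did not overlap, and the reporter-poor mutant lung 2 came nearest to the wild-type values. Its difference was -1.55 ± 0.38 (adjusted p = 0.26), and -1.39 at equal Luc2. It had the same sign in HBSS lungs, -2.66 (adjusted p = 0.47), and was -0.27 in tumour-free lungs (adjusted p = 0.38). Angptl4, a secreted inhibitor of lipoprotein lipase, was between 438 and 893 in WT + T2 and between 295 and 429 in MT2 + T2 lungs, a difference of -0.83, or -0.53 at equal Luc2. Ctbp2, a transcriptional corepressor, was between 607 and 739 against 530 to 597, a difference of -0.28. None of these 3 genes passed the test over all genes; each had an adjusted p of 0.26.

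Among the 18 tested genes of B and plasma cells, the constant chain of IgA had the lowest difference relative to wild-type. The joining chain that links its units came close to it. Igha (chr12:113254830-113260236) was at 465, 373, 367, 664 and 1572 in WT + T2 lungs and at 50.0, 148, 83.9, 84.5 and 213 in MT2 + T2 lungs, with no overlap. The difference was -2.49 ± 0.48 (adjusted p = 0.26) and it changed little at equal Luc2, to -2.34 (adjusted p = 1). Jchain was at 141, 441, 1274, 338 and 491 against 66.7, 47.2, 42.4, 64.1 and 298, a difference of -2.45. Mutant lung 5 overlapped with the wild-type group in Jchain. In HBSS lungs the differences were -1.51 for Igha (adjusted p = 0.60) and -2.12 for Jchain (adjusted p = 0.53), and in tumour-free lungs -0.36 and -0.61. Igha, Jchain, Smim5 and the single genes named below outside the 2 most abundant of their list were picked after their values were seen.

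Of the 26 genes for which every mutant lung was above every wild-type lung, the 10 named here have the largest differences among those with a mean of 50 or more in the mutant group, gene models left out, and they differed by less than 1 log2 unit. Tmem17, a protein of the ciliary transition zone, was at 41.6, 31.7, 34.4, 52.2 and 56.4 in WT + T2 lungs and at 66.7, 58.0, 138, 65.1 and 65.5 in MT2 + T2 lungs. Mutant lung 3 stood apart from the other 4 mutant lungs, and the difference was 0.80. Sgk1, a kinase induced by glucocorticoids and serum, was at 1270.3, 1236, 1292, 1491 and 1379 against 1880.4, 1707, 1931, 1769 and 1620.3. That is a difference of 0.42 ± 0.13 (SE; adjusted p = 0.26), seen with lungs of both kinds, and it was 0.37 at equal Luc2. Slc25a27, a mitochondrial carrier, differed by 0.74. Ift46, a part of the intraflagellar transport machinery, was between 250 and 349 in wild-type and between 380 and 410 in mutant lungs, 0.42. Rbbp8, an endonuclease partner in DNA end resection, differed by 0.47, Gypc by 0.44, Ccdc14 by 0.51, Naip5, a sensor of bacterial flagellin, by 0.41, Tlk2, a chromatin kinase, by 0.37, and Ctnnal1 by 0.31. Each of these 10 genes had an adjusted p of 0.26 or 0.27, and in tumour-free lungs their differences lay between -0.15 and 0.20.

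Among inhibitors of metalloproteinases the TIMPs other than Timp2 lay on both sides of 0. Timp3, the TIMP that stays bound to the matrix, was at 14832, 20388, 13609, 2751 and 21140 in WT + T2 lungs and at 1346, 16914, 2589, 1697 and 2244 in MT2 + T2 lungs. Reck, a membrane-anchored inhibitor, was at 831, 1040.3, 751, 141 and 1169 against 78.5, 1083, 133, 138 and 144. In both genes wild-type lung 4 lay with the mutant lungs and mutant lung 2 with the wild-type lungs. The differences were -2.01 for Timp3 and -1.77 for Reck, each with an adjusted p of 0.26, and -0.85 and -0.59 at equal Luc2. Timp4 was low and differed by -2.08. Timp1, which is induced by cytokines, was at 225, 53.2, 226, 402 and 50.1 against 332, 220.2, 419, 312 and 518, a difference of 1.29. In HBSS lungs Timp1 differed by -0.81, and the interaction of 2.10 had an unadjusted p of 0.00571 and an adjusted p of 0.67. Over the 4 TIMP genes and Reck together, 1 member was higher and 4 were lower. Their median was -1.77 against -0.01 over all genes. An unadjusted p under 0.05 was reached by 4 members, 1 higher and 3 lower, or 80% against 17.8% over all genes.

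The proteases divided in the same manner. Mmp14, the membrane protease that forms the activation complex with TIMP2, was at 2209.8, 516, 516, 3864 and 515 in WT + T2 lungs and at 4018, 639, 4667, 6420.3 and 5268 in MT2 + T2 lungs. Its difference was 1.69 (adjusted p = 0.26), and 0.32 at equal Luc2. Mmp2, the gelatinase that this complex activates, differed by -1.30 and Mmp15 by -2.14, each again with mutant lung 2 among the wild-type values. Adamts1 lay between 1469 and 2899.8 in wild-type and between 1385 and 3283 in mutant lungs. Of 26 tested metalloproteinases, 14 were higher and 12 lower, with a median of 0.14, and 8 had an unadjusted p under 0.05, or 30.8% against 17.8% over all genes. Without mutant lung 2, 4 were called higher, or 15.4% against 14.4% of all genes in that fit, and 9 lower, or 34.6% against 20%. These counts come from a fit singled out after its calls were seen.

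Genes of the fibrillar matrix lay on both sides of 0, and most basement membrane genes averaged lower. Col3a1, a fibrillar collagen, was at 19599.9, 2659, 7173, 28270.5 and 2975 in WT + T2 lungs and at 37479, 4088, 48544, 51798 and 51873 in MT2 + T2 lungs. It differed by 1.86 and by 0.37 at equal Luc2. Fn1, fibronectin, differed by 1.32, while Col1a2 differed by -1.44 and Postn by -1.89. Of 27 tested genes of the fibrillar matrix and its crosslinking, 14 were higher and 13 lower, with a median of 0.04. Of 18 basement membrane genes, 4 were higher and 14 lower, with a median of -0.96 and of -0.31 at equal Luc2. Col4a1 and Col4a2, the chains of the common type IV collagen, differed by -0.31 and -0.65.

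Genes of the injected cells and of cell division averaged higher in the mutant lungs, as Luc2 and Hmga2 did. Of 17 tested transcripts in the tumour cell list, 16 were higher and 1 lower, with a median of 2.25. An unadjusted p under 0.05 was reached by 3, all higher, or 17.6% where 4.5% of all genes were higher at that p. At equal Luc2 the median of the list was 0.16. All 30 proliferation genes were higher, with a median of 1.55 and of 0.22 at equal Luc2. Of them 6 had an unadjusted p under 0.05, or 20% where 4.5% of all genes were higher at that p. No gene of either list was called with all 10 lungs. Top2a, a topoisomerase of dividing cells, was at 1042, 194, 253, 2118 and 120.1 in WT + T2 lungs and at 2188, 278, 1707, 2692 and 2336 in MT2 + T2 lungs. The mutant lung at 278 is number 2. Without that lung, 26 of the 30 proliferation genes and 9 of the 17 tumour transcripts were called higher, where 14.4% of all genes in that fit were. Leaving out the only mutant lung with little reporter raises the mutant mean of such genes by itself. The counts are therefore no separate support. Pkm and Ldha of glycolysis differed by 0.98 and 0.71, and of the 21 glycolysis and hypoxia genes 15 were higher, with a median of 0.60. Krt8 ranged from 2121 to 2995 against 1387 to 3249. Of the 16 genes of epithelial-mesenchymal transition, 10 were higher and 6 lower, with a median of 0.26. Vim differed by 0.59 and the integrin subunit Itgb1, a part of a TIMP2 receptor, by 0.06.

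Every tested gene of the epithelial lists averaged lower in the mutant lungs. For the 14 genes of alveolar type 2 cells the median difference was -1.19, for the 12 of type 1 cells -1.53, for the 12 of club and secretory cells -1.80, and for the 14 of ciliated cells -1.70. At equal Luc2 these medians were -0.39, -0.56, -0.72 and -0.81. Unadjusted p under 0.05 was reached by 5, 10, 10 and 13 of them, all lower, where 13.3% of all genes were lower at that p, and none was called over all genes. Scgb1a1, the secretoglobin of club cells, was at 191399, 351691, 232431, 58396 and 341128 in WT + T2 lungs and at 21967, 316621, 51945, 28290.4 and 50142 in MT2 + T2 lungs. Ager, the receptor that marks type 1 cells, was at 19116, 27454, 19170.5, 5687 and 27513 against 2322, 28186, 5401, 3678 and 5178. In both genes the 5 lungs with most reporter were the 5 lowest, among them wild-type lung 4, and mutant lung 2 was among the 3 highest. Tppp3, a tubulin-binding protein of ciliated cells, differed by -1.51 as measured and by -0.82 at equal Luc2, close to the ciliated median of -0.81. Without mutant lung 2, 14, 11, 11 and 14 members of the 4 lists were called lower, where 20% of all genes in that fit were. That fit leaves only reporter-rich mutant lungs and was singled out after its calls were seen, so it adds no separate support.

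**Figure D4:**
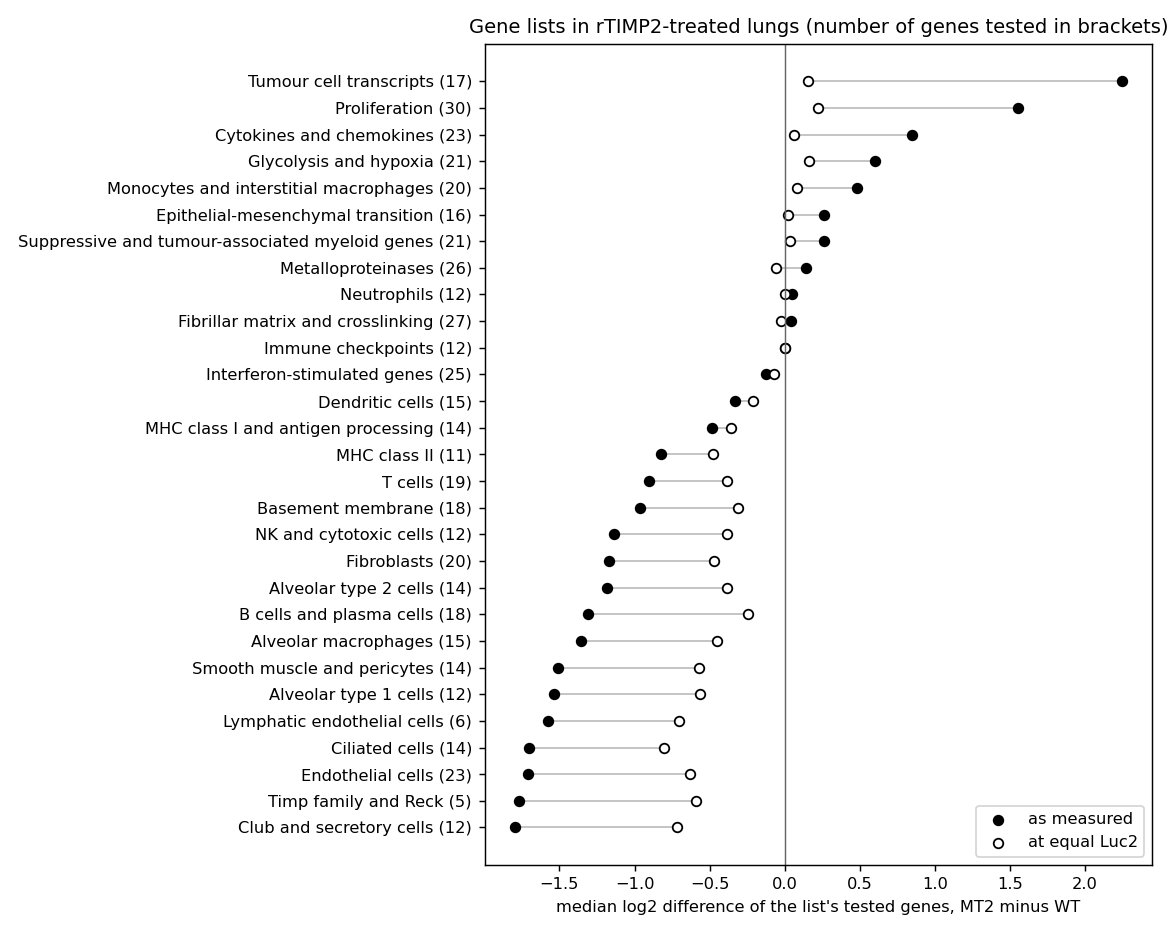
Median log2 difference, mutant minus wild-type under rTIMP2, for 29 gene lists, as measured and with Luc2 held equal. The medians of lung cell lists, such as -1.71 for endothelial cells, move toward 0 at equal Luc2 (-0.63), and so does that of proliferation genes, from 1.55 to 0.22.

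Vessel genes behaved like the epithelial ones. All 23 tested endothelial genes averaged lower in MT2 + T2 lungs, with a median of -1.71 (18 with an unadjusted p under 0.05, or 78.3% where 13.3% of all genes were lower at that p; 0 called), and so did all 6 of lymphatic endothelium, with a median of -1.57 (5 of 6). Pecam1, an adhesion protein of endothelial junctions, was at 7713, 9207, 6257, 1682 and 11826 in WT + T2 lungs and at 772, 9483, 1242, 1356 and 1638 in MT2 + T2 lungs. Its difference was -1.75 and -0.69 at equal Luc2. Aplnr, the apelin receptor, was at 399.8, 469.5, 325, 163 and 620.1 against 53.9, 270.3, 67.8, 120.4 and 87.0. Only wild-type lung 4 overlapped with the mutant range, and the difference was -1.83, or -1.16 at equal Luc2. Vegfa, the main endothelial growth factor, which alveolar epithelium makes, differed by -1.59. Of 14 smooth muscle and pericyte genes, all were lower, with a median of -1.51. Of 20 fibroblast genes, 5 were higher and 15 lower, with a median of -1.17; Dcn differed by 1.16 and Inmt by -1.71.

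Myeloid lists lay on both sides of 0. Of 15 alveolar macrophage genes, 2 were higher and 13 lower, with a median of -1.36. Of 20 genes of monocytes and interstitial macrophages, 13 were higher, with a median of 0.48, and of 21 suppressive and tumour-associated myeloid genes, 13 were higher, with a median of 0.26. The median of that last list was -0.02 without wild-type lung 2, 0.01 without mutant lung 3 and -0.01 without wild-type lungs 2 and 3. Spp1, the macrophage and tumour product osteopontin, was at 5473, 1035, 946, 13805 and 1527 in WT + T2 lungs and at 25637, 1682, 21353, 15616 and 11850 in MT2 + T2 lungs, which is again low in the 4 reporter-poor lungs. Neutrophil genes had a median of 0.05 over 12 members. Dendritic cell genes had a median of -0.33 over 15, of which 12 were lower. Within that list Cd209a, a lectin of monocyte-derived dendritic cells, differed by -1.81 and by -1.30 at equal Luc2. At equal Luc2 the medians of these 5 lists lay between -0.45 and 0.08.

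Lymphocyte genes were mostly lower in the mutant lungs, by less than those of vessels. The median was -0.90 for 19 T cell genes, of which 18 were lower, -1.14 for 12 genes of NK and cytotoxic cells and -1.31 for 18 of B and plasma cells, all of them lower. Unadjusted p under 0.05 was reached by 1, 3 and 3 of them, all lower. That is 5.26%, 25% and 16.7% where 13.3% of all genes were lower at that p, and none was called. Lck, a T cell kinase, was at 105, 211, 136, 168 and 196 in WT + T2 lungs and at 49.0, 216, 75.4, 54.4 and 132 in MT2 + T2 lungs. Ighm, the heavy chain of IgM, ranged from 529 to 7784 against 201 to 2127. At equal Luc2 the medians were -0.38, -0.39 and -0.25.

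Genes of antigen presentation averaged lower in the mutant lungs. All 11 tested genes of MHC class II averaged lower, with a median of -0.83, and 6 had an unadjusted p under 0.05, or 54.5% where 13.3% of all genes were lower at that p. Cd74, the invariant chain, was at 10928, 18787, 12429, 9624 and 14074 in WT + T2 lungs and at 2686, 15089, 3128, 5600.3 and 11351 in MT2 + T2 lungs. Mutant lungs 2 and 5 overlapped with the wild-type range, and the difference was -1.08. All 14 genes of MHC class I and antigen processing were lower too, with a median of -0.48. H2-D1, a class I heavy chain, differed little in range, from 17025 to 23705 against 14364 to 22234. Of 25 interferon-stimulated genes, 11 were higher and 14 lower, with a median of -0.13. Immune checkpoint genes had 6 higher and 6 lower, with a median of 0.00.

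Secreted signals were on the whole higher in the mutant lungs. In the list of cytokines and chemokines, 18 of 23 tested members were higher and 5 lower, with a median of 0.85, which was 0.06 at equal Luc2. The median was 0.47 without wild-type lung 2, 0.42 without mutant lung 5 and 0.31 without wild-type lungs 2 and 3. Cxcl1, a neutrophil attractant, was at 57.8, 9.21, 19.5, 218 and 6.26 in WT + T2 lungs and at 257, 45.2, 318, 223 and 317 in MT2 + T2 lungs. It differed by 2.75 and by 1.15 at equal Luc2. Ptgs2, the inducible cyclooxygenase, was at 230.3, 180.0, 192, 539 and 203 against 751, 359.8, 514, 525 and 659. Only wild-type lung 4 lay within the mutant range, and the difference was 1.15, or 0.68 at equal Luc2.

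Clock genes averaged lower in the mutant lungs, and stress genes lay nearer to 0. Of 17 circadian clock genes, 16 were lower and 1 higher, with a median of -1.31, and 12 had an unadjusted p under 0.05, or 70.6% against 17.8% over all genes. The 1 that was higher was Arntl, a transcription factor of the clock, which differed by 1.37, while its target Dbp differed by -2.13 and Nr1d1 by -2.21. At equal Luc2 the list's median was -0.49. The time of day at which the lungs were taken is not part of the labels used here. Cirbp, an RNA-binding protein induced by cold, was at 366, 594, 519.5, 335 and 709 in WT + T2 lungs and at 1045, 657, 1103, 721 and 689.9 in MT2 + T2 lungs. Unlike most genes it had a larger difference at equal Luc2, 0.92 against 0.76, and it differed by 1.50 in HBSS lungs and by -0.39 in tumour-free lungs. Heat shock genes had a median of -0.17 over 17 members, immediate early genes -0.32 over 18, and metallothioneins and acute phase genes 0.55 over 8. Abundant members whose difference was near 0 included Hspa8, Actg1, Sirpa, Lcn2 and Bst2, all within 0.15 of it.

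Genes of neighbouring tissues averaged lower in the mutant lungs. The 11 cardiac muscle genes, which in mouse lung come from the muscle sleeve of the pulmonary veins, were all lower, with a median of -2.59 and of -0.99 at equal Luc2. The 6 skeletal muscle genes had a median of -5.06 and the 5 squamous epithelium genes one of -4.47; without WT + T2 lungs 2 and 3 these medians were -1.36 and -1.63. Adipocyte genes had a median of -2.64 over 6, mesothelial genes -1.30 over 8 and erythroid genes -1.21 over 7. The part of these tissues in the other differences was not tested. Of the 5 sex chromosome genes, 1 was higher and 4 were lower.

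**Figure D5:**
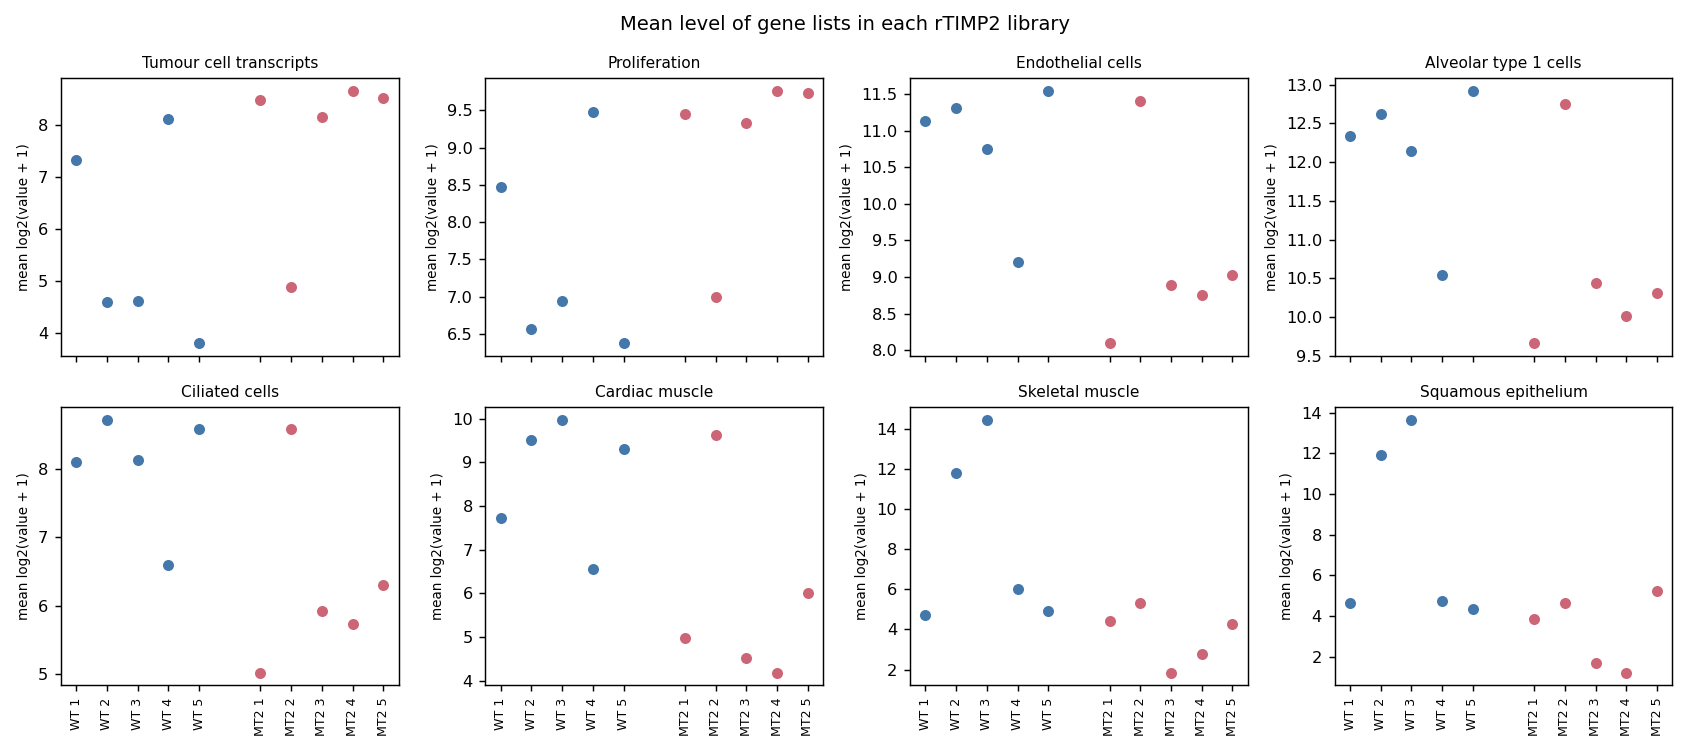
Mean log2 level (normalized count + 1) of 8 gene lists in each of the 10 lungs, WT + T2 in blue and MT2 + T2 in red. Mutant lung 2 stands with the wild-type lungs at a mean of 11.40 for endothelial genes and 6.99 for proliferation genes, where the other mutant lungs lie between 8.09 and 9.03 and between 9.33 and 9.76.

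The genotypes were compared in the same way in 2 other pairs of groups, which share no lung with the treated ones. The tumour-free lungs of both genotypes held 0.910 to 5.78 counts of the Y-linked Ddx3y and 4118 to 6657 of Xist, unlike the treated lungs, whose Ddx3y was 234 or more; the part of host sex in what differs between the comparisons was not tested. In tumour lungs given HBSS, 0 of 16299 genes were called (0%) and 1208 had an unadjusted p under 0.05 (7.41%), 497 higher and 711 lower. Without mutant HBSS lung 3 or 5, 1 gene was called. There the list medians were -1.80 for MHC class II, -1.43 for T cells, -1.86 for B and plasma cells and -0.96 for interferon-stimulated genes, beside -0.83, -0.90, -1.31 and -0.13 under rTIMP2. Those of proliferation and tumour cell genes were -0.24 and 0.13, beside 1.55 and 2.25. The first 4 HBSS medians cover 9, 17, 14 and 25 genes tested there, against 11, 19, 18 and 25 under rTIMP2. An unadjusted limma p under 0.05 was reached in HBSS lungs by 9, 11, 11 and 5 of these. In tumour-free lungs 4 of 16774 genes were called (0.0238%) and 1633 had an unadjusted p under 0.05 (9.74%). Timp2 and Smim6 fell, while Serpinh1, the collagen chaperone, rose by 0.36 and Loxl2, a crosslinking enzyme, by 0.45 on the log2 scale (adjusted p = 0.034 each). The count was 2 without wild-type tumour-free lung 2 or mutant tumour-free lung 1, 2 or 5, and 9 without mutant tumour-free lung 4. Under rTIMP2 Serpinh1 lay between 4836 and 10576 in wild-type and between 5645 and 10344 in mutant lungs, and Loxl2 between 129 and 457 against 110.3 to 409.

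The difference between the rTIMP2 and the HBSS contrasts was tested itself. It called 0 of 17841 genes (0%), and 1053 had an unadjusted p under 0.05 (5.9%), 678 of them with the mutant minus wild-type difference greater under rTIMP2 and 375 with it smaller. The smallest adjusted p was 0.67. Ptgs2 had a difference of -0.89 in HBSS lungs against 1.15 under rTIMP2, an interaction of 2.05 with an unadjusted p of 9.74e-04 and an adjusted p of 0.67. Of 30 proliferation genes, 13 had an unadjusted interaction p under 0.05, with a median interaction of 1.84. Among the 23 cytokines and chemokines it was 8, with a median of 1.39, and of 20 monocyte and interstitial macrophage genes 8, with a median of 0.97. Since the reporter differs more between the treated groups than between the HBSS groups, by 2.67 against 0.24 log2 units, the part of unequal injected-cell RNA in these interactions was not tested. Neither was the part of the muscle and squamous RNA that the HBSS groups also held.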

How the data were processed

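PolyA RNA of mouse lungs was sequenced, and the authors deposited 1 table of normalized counts for the intratracheal model (unit signal: counts divided by a factor per library). Partek, Bowtie2, STAR, DESeq2 and the build mm10 are named in the submitters' processing notes, with neither roles nor versions. Since the values are not raw counts, limma 3.58.1 (R 4.3.3; trend and robust options) was run on log2(value + 1), which understates changes of low genes, over genes that reached 10 in no fewer than 5 libraries of the fit. P-values are two-sided and were adjusted by the Benjamini-Hochberg method over all genes tested; genes under an adjusted p of 0.05 are called. All differences are mutant minus wild-type. Luc2 and Hmga2 were tested by exact permutation. Groups come from the titles.

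Libraries summed to 12.4 to 14.6 M normalized counts. The value of 1 read, from the steps of low values, was 0.816 to 1.15, which gives 12.3 to 15.4 M estimated reads. The comparison, the 41 gene lists and their members were chosen with earlier results of these data known. Named genes are Timp2, Luc2 and Hmga2, the 10 with the largest difference in each direction among genes with no overlap between groups and a mean of 50 or more (gene models, immunoglobulin segments and names held by more than 1 identifier left out; 4 were found in the lower direction), and the 2 most abundant of each list; others were added after their values were seen. The alternatives were other pseudocounts, filters, scalings, array weights, fits with more groups, a replicate block and leaving out each library. The limma steps were tested on simulated data. Positions and the promoter come from RefSeq and annotation of GRCm38. The IgA and other immunoglobulin genes, and near-identical copies such as the globin genes, may share reads.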

Additional observations from a re-analysis of the deposited data

Results flagged for a closer look

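Values of 36 genes were screened in each group of 5 lungs for a lung whose gap to the nearest other, divided by the group's whole range, was above 0.71, Dixon's 95% limit. Of 72 such groups of values 12 passed. Chance gives about 1 in 20 for independent values. These genes share the same lungs and some were picked after their values were seen, so that rate does not test the count. Mutant lung 2 accounted for 8. It stood below the other 4 mutant lungs in Luc2 (gap 0.815 of the range), Hmga2 (0.879), Mmp14 (0.797), Top2a (0.799), Col3a1 (0.872) and Xist (0.729), and above them in Timp3 (0.742) and Reck (0.769). Wild-type lung 4 stood below the other 4 wild-type lungs in Timp3 (0.784) and Reck (0.790). The 2 others were the high value of mutant lung 3 in Tmem17 (0.839) and that of mutant lung 5 in Jchain (0.770).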

How the results depend on the processing

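The number of genes called with all 10 lungs, 0, became 11389 with array weights and 1 with all 6 groups in 1 fit. The array weights were largest, 8.08, for wild-type lung 2, which held muscle and squamous RNA. They were 0.158 for mutant lung 2 and 0.171 for wild-type lung 4, and from 0.734 to 1.98 for the other lungs. With 1 lung left out the number called ranged from 0 to 5664. Genes at an unadjusted p under 0.05 with mutants higher (758) became 1139 without a filter, 1158 with quantile normalization, 5680 with array weights, 2294 with 4 and 3524 with 6 groups in 1 fit, 51 without wild-type lungs 2 and 3, and 159 to 3825 with 1 lung left out. Those lower (2240) became 6169 with array weights, 4381 with 6 groups and 48 without those lungs, and ranged from 544 to 4300. Apart from the numbers the replicates share no origin in the labels: the deviations of same-numbered lungs correlated at -0.01, 0.78, -0.27, 0.42 and -0.40. The replicate block gave 1509 higher genes and still 0 calls. Timp2 passed with array weights (-0.45, adjusted p = 0.0234) and otherwise ranged from -0.45 to -0.23 with 1 lung left out. The differences in mean were 18.0 to 38.3 for Luc2 and 1906 to 3215 for Hmga2 with 1 lung left out, the first passing without wild-type lung 4 and the second without wild-type lung 4 (2916) or mutant lung 2 (exact permutation, adjusted p = 0.0317 each). Calls in tumour-free lungs (4) ranged from 2 to 9 and in HBSS lungs (0) from 0 to 1. Smim6 stayed between -3.29 and -2.80, with adjusted p from 5.17e-05 to 0.74. BC018473 differed by 0.97 with array weights and by 4.03 or more with any 1 lung left out, and passed in none of these. The fits at equal Luc2 and of the interaction called 0 genes under every alternative run. Genes near 0 changed sign: Hspa8 (0.0099 by median of ratios, 0.105 with array weights, 0.033 without wild-type lungs 2 and 3), Itgb1 (-0.0074 by quantiles, -0.027 with array weights, -0.043 without those lungs), Actg1 (-0.053 by quantiles) and, without those lungs, Lcn2 (-0.12), Bst2 (-0.056) and Sirpa (-0.030). With 1 lung left out Hspa8 ranged from -0.19 to 0.074, Itgb1 from -0.020 to 0.11, Actg1 from -0.039 to 0.17, Lcn2 from -0.12 to 0.23, Bst2 from -0.14 to 0.30, Sirpa from -0.072 to 0.11, Marco from -0.73 to 0.15, Chil3 from -0.51 to 0.21. List medians near 0 did too with 1 lung left out: fibrillar matrix -0.07 to 0.13, suppressive myeloid genes -0.02 to 0.35, neutrophils -0.24 to 0.27, interferon-stimulated genes -0.25 to 0.09 and checkpoints -0.07 to 0.13. The cause of these changes was not tested.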
